A study of Arabidopsis thaliana with 24 samples.

Results

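The effect of losing both BCL7A and BCL7B was measured in Arabidopsis seedlings that already lacked BRM, by setting the 3 bcl7a bcl7b brm-1 libraries against the 3 brm-1 libraries, 6 of the 24 libraries of the experiment. Members were taken by genotype label alone, and all 33681 genes of the deposited table were considered, of which 21596 were abundant enough to test. The bcl7a bcl7b brm-1 plants carry T-DNA insertions in BCL7A and BCL7B together with brm-1, a null allele of BRM, and the brm-1 plants carry brm-1 alone. Both are in the Col-0 background, and each insertion is represented by 1 line. RNA came from whole 14-day-old seedlings grown in short days without further treatment, so every organ of the seedling is mixed. In such bulk samples fewer cells of a type and less RNA per cell cannot be told apart. For comparison, the same 2 mutations were also combined with brm-3, a hypomorphic allele of BRM (bcl7a bcl7b brm-3 against brm-3), and studied with BRM intact (bcl7a bcl7b against WT), with 3 libraries per genotype.

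SWI/SNF complexes use the energy of ATP to move or evict nucleosomes and so change the access of transcription factors to DNA. BRM is the ATPase of a plant class of these complexes known as BAS, and BCL7A and BCL7B are small proteins found in it, related to the BCL7 subunits of animal SWI/SNF complexes. In Arabidopsis, brm mutants are known for dwarfism, altered flowering and changed responses to several hormones. The comparison asks which transcripts still respond to the loss of BCL7A and BCL7B when BRM is missing. The other SWI/SNF ATPases of Arabidopsis, SYD, MINU1 and MINU2, are not mutated in any genotype here, and the study also recovered them with BCL7A and BCL7B.

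The mutated genes were read first. BCL7B (AT5G55210, chr5:22396426-22397446) had 0 normalized counts in each of the bcl7a bcl7b brm-1 libraries, against 658, 645 and 554 in the brm-1 libraries. BCL7A (AT4G22320, chr4:11792813-11794778) had 5.05, 3.82 and 0 normalized counts in the bcl7a bcl7b brm-1 libraries, against 107, 85.8 and 90.1 in the brm-1 libraries, a log2 fold change of -4.95 ± 1.02 (SE, adjusted p = 0.000658). Both transcripts were therefore at or near 0 in every bcl7a bcl7b brm-1 library, although BCL7A was itself low in WT, at 0, 18.1 and 30.1. BRM (AT2G46020, chr2:18922533-18932055) had 17.9, 26.5 and 43.6 normalized counts in the bcl7a bcl7b brm-1 libraries, against 35.2, 44.8 and 31.2 in the brm-1 libraries, a log2 fold change of -0.40 ± 0.36 (SE, adjusted p = 0.447), and 111, 179.9 and 349 in the WT libraries. BRM counts overlapped between bcl7a bcl7b brm-1 and brm-1, and the null allele still gave reads over the gene. The exons of all 3 genes overlap a neighbouring gene in the TAIR10.1 annotation, and reads of overlapping genes cannot be told apart where the strand of counting is not stated.

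The libraries of both genotypes were of similar depth. Normalized counts summed to 16.9 to 22.1 M per bcl7a bcl7b brm-1 library and to 18.7 to 22.1 M per brm-1 library (M for mega), from an estimated 24.6 to 25.5 M fragments per bcl7a bcl7b brm-1 library and 24.9 to 26.7 M per brm-1 library. Replicates correlated at 0.961 to 0.966 in bcl7a bcl7b brm-1 and at 0.968 to 0.981 in brm-1 on the log2 scale. The 10 most abundant genes took 7.87% to 12% of a bcl7a bcl7b brm-1 library and 13% to 13.7% of a brm-1 library. Markers of green tissue and root overlapped between the genotypes: 15 Calvin cycle genes together had 390451 to 558185 normalized counts in bcl7a bcl7b brm-1 and 388688 to 602409 in brm-1, and 20 root marker genes had 2082 to 3551 in bcl7a bcl7b brm-1 and 2131 to 2438 in brm-1. A list of 15 shoot and guard-cell markers was lower in every bcl7a bcl7b brm-1 library, at 4729 to 4974 against 5169.5 to 5277 in brm-1, and the part of this in the results was not tested.

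Loss of BCL7A and BCL7B changed genes in similar numbers upwards and downwards in the absence of BRM. At an adjusted p under 0.05 and a log2 fold change beyond 0.6 (limma on log2 of the normalized count plus 1, Benjamini-Hochberg adjustment over all 21596 genes tested), 3071 genes (14.2%) were higher and 3309 (15.3%) were lower in bcl7a bcl7b brm-1 than in brm-1, and 15216 did not pass. These 2 percentages are the background against which the counts of each gene group below are read. The groups were chosen with earlier results of these data known, so that reading is a description and not an independent test. Of the changed genes, 1950 rose and 2554 fell by more than 1 on the log2 scale, and 338 rose and 428 fell by more than 3. The 3 bcl7a bcl7b brm-1 libraries lay wholly above the 3 brm-1 libraries for 3039 of the genes that rose and wholly below for 3230 of those that fell. Over all genes tested, with or without passing, 27.7% had such a separation upwards and 27% downwards. The median change of the genes tested was -0.01 on the log2 scale, and the median standard error was 0.37, or 0.22 among genes with a mean over 500. Adding 1 before the logarithm holds down the fold changes of low genes. In the plot of level against change, the seed storage, defensin and jasmonate genes stood at the upper edge and the phosphate starvation genes at the lower edge.

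**Figure D1:**
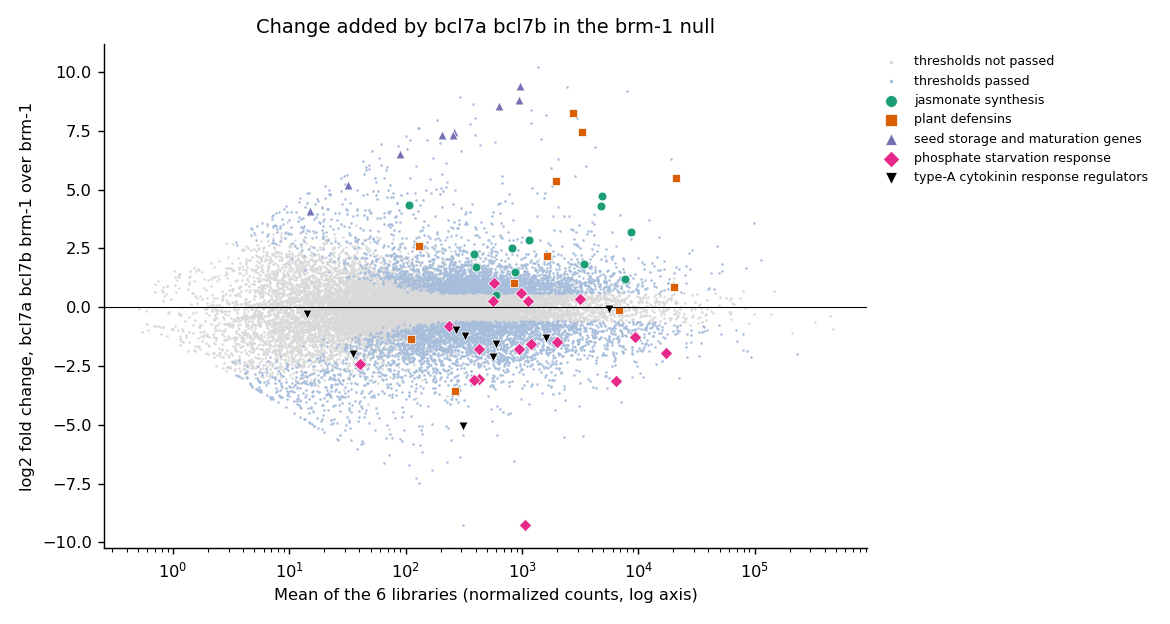
Change of each of the 21596 genes tested. The x axis is the mean normalized count over the 6 libraries (log scale) and the y axis the log2 fold change of bcl7a bcl7b brm-1 over brm-1. Coloured points mark members of 5 gene lists. Jasmonate synthesis genes and most defensins lie above 0, seed storage genes lie highest, and most phosphate starvation genes and type-A ARR genes lie below 0.

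Jasmonate is a lipid-derived hormone made from plastid fatty acids after wounding or attack. Its conjugate with isoleucine is bound by COI1 and JAZ proteins, the JAZ repressors are then degraded, and MYC transcription factors become active. Most genes of this pathway were higher in bcl7a bcl7b brm-1. Of 12 jasmonate synthesis genes tested, 11 rose and none fell, with a median log2 fold change of 2.41 against -0.01 for all genes, and 11 to 12 rose when any 1 of the 6 libraries was left out. The exception was JAR1, which conjugates jasmonate to isoleucine, with a log2 fold change of 0.51 (adjusted p = 0.0911).

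The synthesis genes are given in the order of the pathway. LOX2, the plastid lipoxygenase that oxygenates linolenic acid, had 8025, 10872 and 8116 normalized counts in the bcl7a bcl7b brm-1 libraries, against 512, 511 and 354 in the brm-1 libraries, a log2 fold change of 4.30 ± 0.52 (SE, adjusted p = 1.67e-06). AOS, which turns the hydroperoxide into allene oxide, had 12739, 18133 and 15898 normalized counts in the bcl7a bcl7b brm-1 libraries, against 1919, 1832 and 1309.8 in the brm-1 libraries, a log2 fold change of 3.21 ± 0.21 (SE, adjusted p = 4.49e-10). Both lipoxygenase and allene oxide synthase transcripts were higher in every bcl7a bcl7b brm-1 library than in any brm-1 library. AOC2, an allene oxide cyclase, had 9839, 10369 and 7886 normalized counts in the bcl7a bcl7b brm-1 libraries, against 592, 357 and 195 in the brm-1 libraries, a log2 fold change of 4.75 ± 0.32 (SE, adjusted p = 8.83e-10). OPR3, the peroxisomal reductase of the next step, had 1505, 1715 and 962 normalized counts in the bcl7a bcl7b brm-1 libraries, against 238, 259.7 and 206 in the brm-1 libraries, a log2 fold change of 2.53 ± 0.24 (SE, adjusted p = 9.05e-08). AOC2 gave the largest change of the list, and neither gene overlapped between the genotypes. The other cyclases also rose, AOC3 by 2.86, AOC4 by 1.84 and AOC1 by 1.22 on the log2 scale, as did OPCL1 and ACX1, which act in the shortening of the side chain, by 2.28 and 1.51.

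Of 20 genes of jasmonate signalling and its MYC-dependent output, 13 rose and 2 fell, with a median log2 fold change of 2.23. JAZ10, a repressor that is itself induced by jasmonate, had 1238, 1845 and 657 normalized counts in the bcl7a bcl7b brm-1 libraries, against 63.6, 44.2 and 49.8 in the brm-1 libraries, a log2 fold change of 4.44 ± 0.69 (SE, adjusted p = 3.18e-05). JAZ1 had 614, 657 and 602 normalized counts in the bcl7a bcl7b brm-1 libraries, against 41.4, 23.1 and 51.6 in the brm-1 libraries, a log2 fold change of 4.05 ± 0.42 (SE, adjusted p = 2.07e-07). JAZ2, JAZ3, JAZ5, JAZ6 and JAZ9 also passed, with log2 fold changes between 1.56 and 4.44, so the transcripts of most repressors were higher together. JAZ8 passed at 3.73 (adjusted p = 0.0289), but its adjusted p was 0.0789 without bcl7a bcl7b brm-1 replicate 2, 0.079 without its replicate 3, 0.0849 without brm-1 replicate 2 and 0.0723 without brm-1 replicate 3.

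The outputs of the pathway rose as well. VSP1, which encodes a vegetative storage protein and acid phosphatase, had 9448, 10942 and 4953 normalized counts in the bcl7a bcl7b brm-1 libraries, against 98.9, 75 and 44.4 in the brm-1 libraries, a log2 fold change of 6.83 ± 0.34 (SE, adjusted p = 8.31e-12). Its homologue VSP2 had 3745, 4761 and 1994 normalized counts in the bcl7a bcl7b brm-1 libraries, against 80.3, 28.9 and 62.7 in the brm-1 libraries, a log2 fold change of 5.94 ± 0.52 (SE, adjusted p = 2.2e-08). TAT3, a tyrosine aminotransferase gene induced by wounding, had 2099, 2739 and 2231 normalized counts in the bcl7a bcl7b brm-1 libraries, against 71.7, 3.77 and 0 in the brm-1 libraries, a log2 fold change of 8.38 ± 1.09 (SE, adjusted p = 4.32e-06). For all 3 genes the lowest bcl7a bcl7b brm-1 library was far above the highest brm-1 library. Among the transcription factors, MYC2 had 623, 683 and 450.02 normalized counts in the bcl7a bcl7b brm-1 libraries, against 218, 266 and 188 in the brm-1 libraries, a log2 fold change of 1.37 ± 0.38 (SE, adjusted p = 0.00834). MYC4 went the other way, with 309.7, 342 and 309.6 normalized counts in the bcl7a bcl7b brm-1 libraries, against 1069, 1202 and 1129.5 in the brm-1 libraries, a log2 fold change of -1.82 ± 0.26 (SE, adjusted p = 1.22e-05). MYC3 also fell, by 1.04 on the log2 scale (adjusted p = 0.00496), so that the 3 related MYC genes did not move as one.

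The genes induced by jasmonate together with ethylene through ERF transcription factors divided. Plant defensins, small secreted antifungal proteins, rose in 7 of 11 cases and fell in 1, with a median log2 fold change of 2.18, and 5 to 7 rose with any 1 library left out. PDF1.2 had 4580.3, 11032 and 3787 normalized counts in the bcl7a bcl7b brm-1 libraries, against 48.7, 22.1 and 31.2 in the brm-1 libraries, a log2 fold change of 7.43 ± 0.81 (SE, adjusted p = 4.27e-07). PDF1.3 had 30026, 61698 and 31114 normalized counts in the bcl7a bcl7b brm-1 libraries, against 1694, 1322 and 275 in the brm-1 libraries, a log2 fold change of 5.50 ± 0.79 (SE, adjusted p = 1.39e-05). These defensins separated completely between the genotypes, and bcl7a bcl7b brm-1 replicate 2 was the highest library for both. PDF1.5 was the exception, with 30, 45.9 and 43.7 normalized counts in the bcl7a bcl7b brm-1 libraries, against 665, 474 and 334 in the brm-1 libraries, a log2 fold change of -3.56 ± 0.57 (SE, adjusted p = 4.48e-05). In the gene spans of PDF1.2, PDF1.2b, PDF1.2c and PDF1.3, between 8.89% and 14.4% of the 31-base words occur more than once in the nuclear chromosomes. Where the further copies lie was not examined, and some reads could belong to another locus. Of 16 genes of the ERF branch, 4 rose and none fell, with a median of 0.43. HEL, a hevein-like protein, had 83502, 287659 and 178322 normalized counts in the bcl7a bcl7b brm-1 libraries, against 41304, 49142 and 32211 in the brm-1 libraries, a log2 fold change of 2.01 ± 0.38 (SE, adjusted p = 0.000274). HCHIB, a basic chitinase, had 1003, 2025 and 1044 normalized counts in the bcl7a bcl7b brm-1 libraries, against 263, 332 and 213 in the brm-1 libraries, a log2 fold change of 2.27 ± 0.46 (SE, adjusted p = 0.000572). ERF2 and ERF1A were the other 2 that passed, at 1.70 and 1.58, whereas ORA59, the ERF factor that joins jasmonate and ethylene signals at the PDF1.2 promoter, had 472, 579.8 and 722 normalized counts in the bcl7a bcl7b brm-1 libraries, against 703, 779.99 and 578 in the brm-1 libraries (log2 fold change -0.23, adjusted p = 0.872).

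The 300 bases before the gene start were read for 2 of the defensins because ERF factors bind the GCC box, GCCGCC, found in both. Matches on either strand are in capitals.
PDF1.2 (chr5:17907639-17907938, minus strand): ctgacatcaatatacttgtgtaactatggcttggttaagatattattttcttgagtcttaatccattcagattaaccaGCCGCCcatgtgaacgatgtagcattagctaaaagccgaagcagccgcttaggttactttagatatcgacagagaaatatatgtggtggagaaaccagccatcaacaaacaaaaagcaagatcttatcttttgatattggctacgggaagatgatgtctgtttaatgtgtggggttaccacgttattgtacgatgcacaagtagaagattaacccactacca
PDF1.2b (chr2:11088823-11089122, plus strand): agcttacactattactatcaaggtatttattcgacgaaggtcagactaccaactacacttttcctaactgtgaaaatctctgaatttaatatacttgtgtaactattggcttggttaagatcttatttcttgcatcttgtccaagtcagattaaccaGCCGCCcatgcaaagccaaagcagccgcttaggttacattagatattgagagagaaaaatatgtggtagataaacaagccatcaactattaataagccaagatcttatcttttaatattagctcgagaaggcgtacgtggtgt
The match begins 222 bases before the start of PDF1.2 and 143 bases before that of PDF1.2b. A GCC box was present in 3 of the 11 defensin windows, including that of PDF1.5, which fell, and in 2.39% of all 21428 windows of tested genes. The G-box CACGTG, to which MYC factors bind, was in 2 of 12 jasmonate synthesis windows and 5 of 20 signalling windows, against 8.02% of all windows. Windows were read from RefSeq with the TAIR10.1 assembly, and a match describes the letters only.

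**Figure D2:**
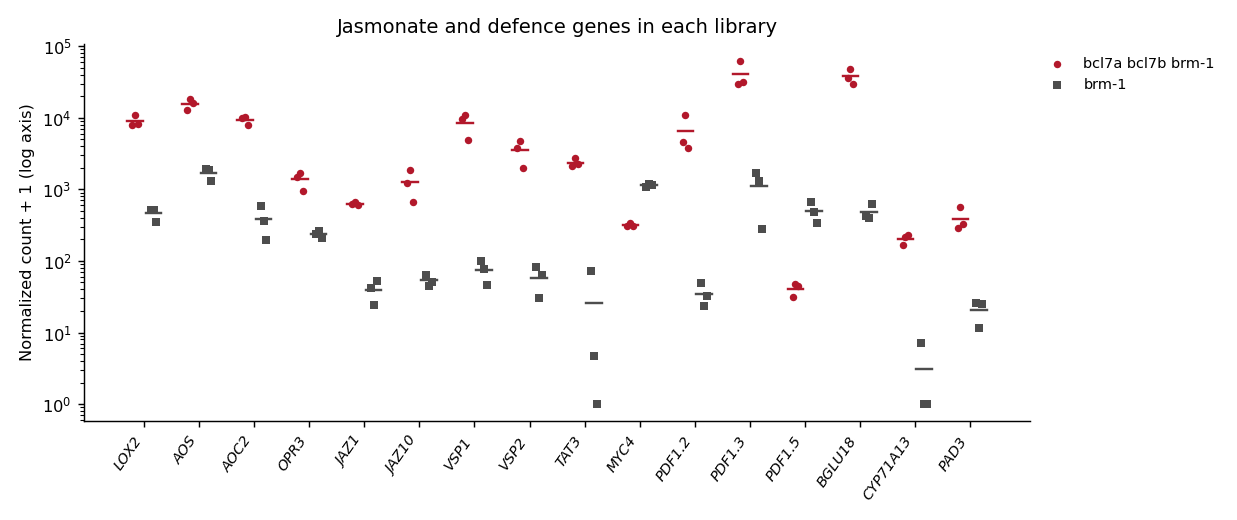
Normalized count plus 1 (log axis) of 16 jasmonate and defence genes in the 3 bcl7a bcl7b brm-1 libraries and the 3 brm-1 libraries, with bars at the means. All genes shown except MYC4 and PDF1.5 are higher in each bcl7a bcl7b brm-1 library, and MYC4 and PDF1.5 are lower in each.

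Defence metabolites derived from amino acids followed. Glucosinolates are sulfur-rich compounds of the Brassicaceae that myrosinases break down to toxic products on tissue damage. Of 18 glucosinolate genes, 10 rose and none fell, with a median log2 fold change of 1.01 and 7 to 10 rises with any 1 library left out. BGLU18, a beta-glucosidase of endoplasmic reticulum bodies, had 36024, 47557 and 29789.8 normalized counts in the bcl7a bcl7b brm-1 libraries, against 425, 397 and 622 in the brm-1 libraries, a log2 fold change of 6.29 ± 0.39 (SE, adjusted p = 3.42e-10). CYP83B1, which commits indole-3-acetaldoxime to indole glucosinolates, had 6844, 8045 and 6635 normalized counts in the bcl7a bcl7b brm-1 libraries, against 1093, 1047 and 1229 in the brm-1 libraries, a log2 fold change of 2.67 ± 0.23 (SE, adjusted p = 1.66e-08). MYB28, the main regulator of the aliphatic class, had 2351, 1929 and 2496 normalized counts in the bcl7a bcl7b brm-1 libraries, against 1215, 1183 and 989 in the brm-1 libraries, and its rise also passed (adjusted p = 0.000946). BGLU18 was among the abundant transcripts in bcl7a bcl7b brm-1 alone of the 2 genotypes, and the other 2 genes were separated by smaller margins. CYP83A1, BCAT4, SOT17 and SOT18, which act in the core pathway and its side chains, rose by 1.52, 1.07, 1.85 and 1.32 on the log2 scale. MYB29 (adjusted p = 0.0483) lost its call with any 1 of the 6 libraries left out, at adjusted p values of 0.0881 to 0.109.

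Camalexin is the indolic phytoalexin of Arabidopsis, made from the same aldoxime. Of 15 camalexin and pathogen-induced genes, 4 rose and 1 fell, and 10 rose with only the compared genotypes in the fit. CYP71A13, which starts the camalexin branch, had 167, 216 and 231 normalized counts in the bcl7a bcl7b brm-1 libraries, against 6.15, 0 and 0 in the brm-1 libraries, a log2 fold change of 6.72 ± 0.89 (SE, adjusted p = 5.27e-06). PAD3, which completes camalexin, had 285, 559 and 326 normalized counts in the bcl7a bcl7b brm-1 libraries, against 24.7, 10.7 and 24.4 in the brm-1 libraries, a log2 fold change of 4.25 ± 0.83 (SE, adjusted p = 0.000402). CYP79B2 and CYP79B3, which make the shared aldoxime from tryptophan, rose by 2.84 and 1.84, so that each of the 4 genes that rose encodes a step from tryptophan to camalexin. PAD4, a lipase-like regulator of salicylic acid signalling and the 1 gene that fell, had 167, 119 and 101 normalized counts in the bcl7a bcl7b brm-1 libraries, against 1756, 1425 and 565 in the brm-1 libraries, a log2 fold change of -3.14 ± 0.36 (SE, adjusted p = 9.67e-07).

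Salicylic acid genes were called in both directions, in numbers not far from the shares over all genes tested, 14.2% higher and 15.3% lower. Of 18 tested, 4 rose and 2 fell, with a median log2 fold change of 0.63, or of 0.65 without the 1 member listed at 0 in a whole genotype. The number that rose was 8 with only the compared genotypes in the fit, 1 without brm-1 replicate 2, 2 without bcl7a bcl7b brm-1 replicate 3 and 2 without brm-1 replicate 1. BGL2, a pathogenesis-related glucanase, had 749, 1246 and 564 normalized counts in the bcl7a bcl7b brm-1 libraries, against 18.6, 1.65 and 5.18 in the brm-1 libraries, a log2 fold change of 6.88 ± 1.40 (SE, adjusted p = 0.000591). PR1, the usual reporter of the pathway, had 60, 146 and 599 normalized counts in the bcl7a bcl7b brm-1 libraries, against 689, 80.8 and 23.5 in the brm-1 libraries (log2 fold change 0.65, adjusted p = 0.775). BGL2 separated the genotypes. PAD4 and NIMIN1, a protein that binds the salicylic acid receptor NPR1, were the 2 that fell, and NIMIN1 had 0 normalized counts in each of the bcl7a bcl7b brm-1 libraries, against 27.1, 15.7 and 2.92 in the brm-1 libraries.

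Several genes of the red anthocyanin pigments rose. Of 14 flavonoid and anthocyanin genes tested, 6 rose and none fell, with a median of 0.72. DFR, the reductase at the entry to anthocyanins, had 129, 70.3 and 61.6 normalized counts in the bcl7a bcl7b brm-1 libraries, against 3.53, 0 and 0 in the brm-1 libraries, a log2 fold change of 5.66 ± 0.90 (SE, adjusted p = 4.6e-05). PAP1, the MYB factor that activates anthocyanin genes, had 49.3, 102 and 71.6 normalized counts in the bcl7a bcl7b brm-1 libraries, against 0, 1.64 and 3.66 in the brm-1 libraries, a log2 fold change of 4.97 (adjusted p = 0.000521). LDOX, which acts after DFR, had 167, 103 and 57.7 normalized counts in the bcl7a bcl7b brm-1 libraries, against 10.9, 0.845 and 2.26 in the brm-1 libraries, a log2 fold change of 4.60 ± 0.94 (SE, adjusted p = 0.000628). All 3 were close to 0 in every brm-1 library and clearly detected in every bcl7a bcl7b brm-1 library.

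Of 20 abscisic acid and dehydration genes, 6 rose and 1 fell, with a median of 1.02. RD22, a dehydration-responsive gene, had 10427, 9883 and 11547 normalized counts in the bcl7a bcl7b brm-1 libraries, against 1233, 1344 and 894 in the brm-1 libraries, a log2 fold change of 3.22 ± 0.30 (SE, adjusted p = 5.07e-08). CYP707A1, which breaks down abscisic acid, had 151, 155 and 113 normalized counts in the bcl7a bcl7b brm-1 libraries, against 8.66, 13.9 and 11.7 in the brm-1 libraries, a log2 fold change of 3.52 ± 0.65 (SE, adjusted p = 0.000242). The groups did not overlap for either. The number that rose was 14 with only the compared genotypes in the fit, 3 without bcl7a bcl7b brm-1 replicate 1, 3 without its replicate 2 and 3 without brm-1 replicate 3, and LEA4-5, RAB18 and RD29A lost their calls in several of the fits without 1 library. None fell without bcl7a bcl7b brm-1 replicate 2 or 3 or brm-1 replicate 1 or 2.

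Seed storage genes, normally active only in the maturing embryo, were detected in bcl7a bcl7b brm-1 seedlings and hardly or not at all in brm-1. Of 16 such genes listed, 9 reached the level for testing, most of them through the bcl7a bcl7b brm-1 libraries in which they were high, so that their number is a description and not a result of the test. CRC (AT4G28520, chr4:14087556-14089796), the cruciferin C globulin, had 5271, 279 and 202 normalized counts in the bcl7a bcl7b brm-1 libraries, against 0 in each of the brm-1 libraries. CRA1 (AT5G44120, chr5:17756238-17758336), the cruciferin A globulin, had 4992, 398 and 228 normalized counts in the bcl7a bcl7b brm-1 libraries, against 1.83, 0.856 and 0 in the brm-1 libraries, a log2 fold change of 8.79 ± 1.48 (SE, adjusted p = 8.33e-05). SESA1 (AT4G27140, chr4:13607329-13608031), a 2S albumin, had 3323, 281 and 203 normalized counts in the bcl7a bcl7b brm-1 libraries, against 0, 2.47 and 0 in the brm-1 libraries, a log2 fold change of 8.57 ± 1.11 (SE, adjusted p = 4e-06). Replicate 1 of bcl7a bcl7b brm-1 was far above the other 2 libraries of its genotype for all 3 genes, and every library of the genotype was above every brm-1 library. Without bcl7a bcl7b brm-1 replicate 1, the log2 fold change was 7.44 for CRA1 (adjusted p = 0.00128) and 7.31 for SESA1 (adjusted p = 6.01e-05).

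Other storage genes were likewise highest in replicate 1. SESA2 had 1436, 56.1 and 61.8 normalized counts in the bcl7a bcl7b brm-1 libraries, against 0 in each of the brm-1 libraries, and OLEO1, an oleosin that coats seed oil bodies, had 1096, 88.7 and 40.9 normalized counts in the bcl7a bcl7b brm-1 libraries, against 0 in each of the brm-1 libraries. EM1, a late embryogenesis abundant protein, had 130.2, 56.8 and 5.41 normalized counts in the bcl7a bcl7b brm-1 libraries, against 0 in each of the brm-1 libraries. Each was listed at 0 in every brm-1 library. With brm-3, CRC was listed at 0 in every bcl7a bcl7b brm-3 library and had 0.979, 0 and 6.52 in the brm-3 libraries. Over the 9 genes, 1 rose and 1 fell in that comparison. With BRM intact, CRC had 48.7, 0 and 50.2 in bcl7a bcl7b and 0, 0 and 17.8 in WT. CRA1 had 108, 5.88 and 103 in bcl7a bcl7b and 0, 0 and 53.3 in WT. SESA1 had 2.14, 0 and 0 in bcl7a bcl7b and 0, 0 and 20.6 in WT.

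ICL (AT3G21720, chr3:7652487-7656053), the isocitrate lyase of the glyoxylate cycle by which germinating seedlings turn stored oil into sugar, had 24896, 14886 and 8302 normalized counts in the bcl7a bcl7b brm-1 libraries, against 24.6, 19.8 and 28.1 in the brm-1 libraries, a log2 fold change of 9.19 ± 1.19 (SE, adjusted p = 4.2e-06). It was high in all 3 bcl7a bcl7b brm-1 libraries and still differed without replicate 1, with a log2 fold change of 8.80 (adjusted p = 6.21e-05). ICL also rose with BRM intact (log2 fold change 5.38, adjusted p = 0.00576). There it had 812, 1161 and 811 in bcl7a bcl7b and 0, 35.4 and 346 in WT. The difference between these effects was not called (adjusted p = 0.112). With brm-3, ICL had 134, 185 and 215 in bcl7a bcl7b brm-3 and 177, 137 and 331 in brm-3, all above its level in brm-1.

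The RY element CATGCA, to which embryo transcription factors such as ABI3 and FUS3 bind, was present in 7 of the 9 seed windows and in 9.68% of all windows of tested genes. Most of the 9 were tested only because they were high in bcl7a bcl7b brm-1, and the other listed seed genes were not searched. These shares are therefore a description. The element is shown for CRA1 and SESA1, the 2 seed genes with a fold change named above, with matches on either strand in capitals.
CRA1 (chr5:17758337-17758636, minus strand): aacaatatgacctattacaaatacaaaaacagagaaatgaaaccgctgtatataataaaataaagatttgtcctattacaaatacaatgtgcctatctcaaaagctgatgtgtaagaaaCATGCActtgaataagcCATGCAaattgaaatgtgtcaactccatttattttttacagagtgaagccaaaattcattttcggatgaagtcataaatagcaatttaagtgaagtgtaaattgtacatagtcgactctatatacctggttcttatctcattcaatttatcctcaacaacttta
SESA1 (chr4:13607029-13607328, plus strand): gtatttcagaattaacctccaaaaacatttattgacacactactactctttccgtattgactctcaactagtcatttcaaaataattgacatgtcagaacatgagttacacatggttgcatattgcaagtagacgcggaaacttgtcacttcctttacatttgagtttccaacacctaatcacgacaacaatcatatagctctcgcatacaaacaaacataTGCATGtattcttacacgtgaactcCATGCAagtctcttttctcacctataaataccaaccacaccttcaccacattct
CRA1 has matches that begin 181 and 164 bases before the gene, and SESA1 has matches at 79 and 54 bases.

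**Figure D3:**
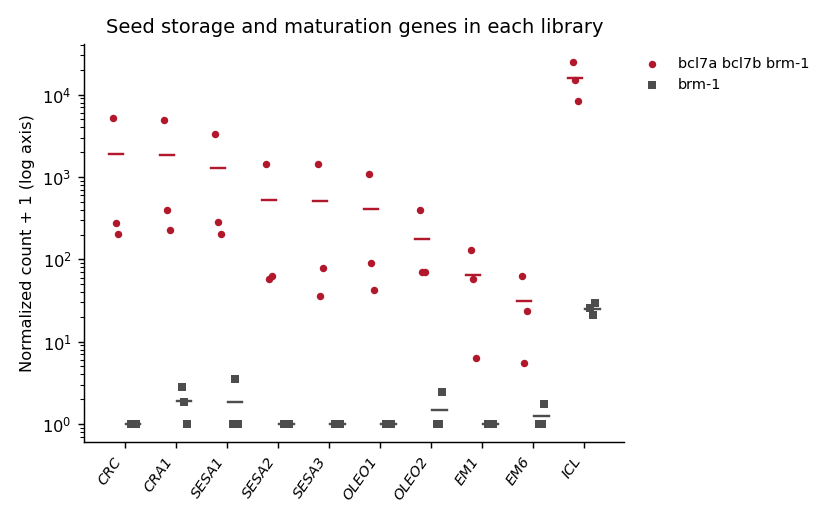
Normalized count plus 1 (log axis) of 9 seed storage and maturation genes and ICL in the 3 bcl7a bcl7b brm-1 libraries and the 3 brm-1 libraries, with bars at the means. Replicate 1 of bcl7a bcl7b brm-1 is the highest library for every gene, and the brm-1 libraries lie at or near 0 for all but ICL, which had 19.8 to 28.1 there.

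Phosphate starvation genes moved the opposite way. When phosphate is scarce, PHR transcription factors induce acid phosphatases, lipid remodelling enzymes, SPX proteins and miR399, and miR399 cleaves the transcript of PHO2, an enzyme that marks phosphate transporters for degradation. Of 17 such genes, 9 fell and 1 rose in bcl7a bcl7b brm-1, with a median log2 fold change of -1.55, and 6 to 9 fell with any 1 library left out. The 1 that rose was PHO2.

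MIR399D (AT2G34202, chr2:14442978-14443077), a precursor of miR399, had 3.96, 4.51 and 0 normalized counts in the bcl7a bcl7b brm-1 libraries, against 2637, 2853 and 818 in the brm-1 libraries, a log2 fold change of -9.25 ± 1.34 (SE, adjusted p = 1.45e-05). MIR399C (AT5G62162, chr5:24962485-24962598), a second precursor named by the rule on the largest changes, had 9.92, 24.1 and 0 normalized counts in the bcl7a bcl7b brm-1 libraries, against 734, 706 and 296 in the brm-1 libraries, a log2 fold change of -6.37 ± 1.05 (SE, adjusted p = 6.84e-05). Both precursors were abundant in all brm-1 libraries and near 0 in all bcl7a bcl7b brm-1 libraries. Both were listed at 0 in every WT library. PHO2 had 877, 684 and 736 normalized counts in the bcl7a bcl7b brm-1 libraries, against 349, 426 and 339 in the brm-1 libraries, a log2 fold change of 1.04 ± 0.28 (SE, adjusted p = 0.00658), with no overlap between the genotypes.

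The mature sequences show what these precursors share. Capitals in the miRNAs mark the seed, bases 2 to 8. Capitals in the target site mark the bases that match the exact complement of miR399d, and G:U pairs are in small letters.
ath-miR399d (chr2:14442988-14443008, minus strand): uGCCAAAGgagauuugccccg
ath-miR399c-3p (chr5:24962568-24962588, plus strand): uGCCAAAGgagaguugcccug
PHO2 site (chr2:14281884-14281904, minus strand): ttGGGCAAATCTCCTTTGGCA
All 6 miR399 members found in RefSeq had the same seed. The 5' UTR of PHO2 held 5 sites that differ from the exact complement of miR399d at 2 or 3 positions. The site with the fewest differences is printed. Mature miRNAs were not measured in these libraries, which count transcripts of the precursor loci. The 300 bases before MIR399D hold 1 match to P1BS, GNATATNC, the element bound by PHR1, which begins 169 bases before the gene and is in capitals.
MIR399D (chr2:14443078-14443377, minus strand): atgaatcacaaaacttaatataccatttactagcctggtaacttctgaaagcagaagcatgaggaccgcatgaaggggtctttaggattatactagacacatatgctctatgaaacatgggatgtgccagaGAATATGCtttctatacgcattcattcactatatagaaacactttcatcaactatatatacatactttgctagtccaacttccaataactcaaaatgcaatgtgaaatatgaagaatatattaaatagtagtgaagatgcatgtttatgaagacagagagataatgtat
P1BS was present in 5 of the 17 phosphate windows and in 6.63% of all windows.

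The other phosphate genes fell by less. SPX1, a phosphate sensor that holds PHR1 inactive, had 1591, 1222 and 988 normalized counts in the bcl7a bcl7b brm-1 libraries, against 14059, 12381 and 7908 in the brm-1 libraries, a log2 fold change of -3.16 ± 0.45 (SE, adjusted p = 1.27e-05). AT4, a noncoding RNA that sequesters miR399, had 5445, 10071 and 5966 normalized counts in the bcl7a bcl7b brm-1 libraries, against 34939, 26061 and 21401 in the brm-1 libraries, a log2 fold change of -1.97 ± 0.44 (SE, adjusted p = 0.0015). SQD2, which makes the sulfolipid that replaces phospholipid, had 642, 608 and 534 normalized counts in the bcl7a bcl7b brm-1 libraries, against 2170.4, 1946 and 1241 in the brm-1 libraries, a log2 fold change of -1.55 ± 0.27 (SE, adjusted p = 0.000116). The highest bcl7a bcl7b brm-1 library stayed below the lowest brm-1 library for each of them. PAP17, an acid phosphatase, fell by 1.28 on the log2 scale. SPX3 fell by 3.08 (adjusted p = 0.0178), with adjusted p values of 0.059 without bcl7a bcl7b brm-1 replicate 3, 0.0552 without brm-1 replicate 1 and 0.0665 without brm-1 replicate 2.

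With brm-3 this list moved in the other direction. There 12 of the 17 genes rose and 1 fell, and the effect was more negative with brm-1 than with brm-3 for 12 genes and more positive for 1, PHO2. SPX1 had 10665, 3681 and 11182 in bcl7a bcl7b brm-3 and 719, 1248 and 659 in brm-3, and its effect with brm-1 minus that with brm-3 was -6.34 ± 0.64 (SE, adjusted p = 4.4e-07). PHO2 had 273, 306 and 263 in bcl7a bcl7b brm-3 and 498, 668 and 648 in brm-3, with a difference of 2.14 ± 0.40 (SE, adjusted p = 0.000328). SPX1 was thus lower in bcl7a bcl7b brm-1 than in brm-1, where it was high, and higher in bcl7a bcl7b brm-3 than in brm-3, where it was low.

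The transition from juvenile to adult leaves is timed by miR156, which represses SPL transcription factors. Of 13 genes of miR156 and its SPL targets, 5 fell and none rose, with 3 to 4 falls when 1 library was left out. SPL3, a floral promoter with a miR156 site, had 93.6, 87.4 and 112 normalized counts in the bcl7a bcl7b brm-1 libraries, against 4265, 4837 and 4314 in the brm-1 libraries, a log2 fold change of -5.51 ± 0.33 (SE, adjusted p = 1.6e-10). MIR156C (AT4G31877, chr4:15415418-15415521), a precursor, had 139.6, 71.6 and 90.9 normalized counts in the bcl7a bcl7b brm-1 libraries, against 261, 285 and 261 in the brm-1 libraries, a log2 fold change of -1.46 ± 0.24 (SE, adjusted p = 5.67e-05). MIR156A (AT2G25095, chr2:10676451-10676573) had 15.2, 8.4 and 15.3 normalized counts in the bcl7a bcl7b brm-1 libraries, against 46.3, 40.7 and 31.2 in the brm-1 libraries, a log2 fold change of -1.56 ± 0.56 (SE, adjusted p = 0.0369). SPL3 was therefore far lower in every bcl7a bcl7b brm-1 library, while MIR156A and MIR156C were also lower and did not overlap. Among the MIR157 precursors, MIR157A rose by 1.35 on the log2 scale (adjusted p = 0.00137) and MIR157C fell by 3.41 (adjusted p = 0.00814). Their part in the level of SPL3 was not tested. MIR156A lost its call with any 1 of the 6 libraries left out, at adjusted p values of 0.0501 to 0.138. The number of falls in the list was 3 without bcl7a bcl7b brm-1 replicate 2, brm-1 replicate 1 or brm-1 replicate 2. By RT-qPCR the study reported that adding bcl7a bcl7b to brm-1 did not worsen the loss of miR156 or the rise of SPL genes. The fall of MIR156C here differs from that report on miR156. The SPL genes measured there were SPL9, SPL13 and SPL15, so the fall of SPL3 cannot be set against it.

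The site of miR156 in SPL3 is shown because SPL3 had the largest change of the list. Capitals mark the seed of the miRNA and the bases of the site that match its exact complement.
ath-miR156a-5p (chr2:10676534-10676553, minus strand): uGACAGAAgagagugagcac
SPL3 site (chr2:14305878-14305897, plus strand): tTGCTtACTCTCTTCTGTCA
The site lies in the 3' UTR and differs from the exact complement at 2 positions, where a G:U pair counts as a difference. SPL9, another miR156 target and a regulator of leaf production rate, had 55.1, 35.3 and 45.4 normalized counts in the bcl7a bcl7b brm-1 libraries, against 51.3, 45.4 and 23.9 in the brm-1 libraries, a log2 fold change of 0.21 ± 0.96 (SE, adjusted p = 0.898). It was not called, its groups overlapped, and its exons overlap a neighbouring gene. SPL2 fell by 1.83 on the log2 scale (adjusted p = 0.000822).

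Flowering regulators fell or did not pass. Of 18 tested, 8 fell and none rose, with a median log2 fold change of -1.12 and 7 to 8 falls with any 1 library left out. AGL24, a MADS-box promoter of flowering, had 1.36, 8.12 and 0 normalized counts in the bcl7a bcl7b brm-1 libraries, against 125, 104 and 167 in the brm-1 libraries, a log2 fold change of -5.55 ± 0.59 (SE, adjusted p = 3.12e-07). SVP, a MADS-box repressor, had 589.6, 865 and 616 normalized counts in the bcl7a bcl7b brm-1 libraries, against 1545, 1720.2 and 1586 in the brm-1 libraries, a log2 fold change of -1.25 ± 0.17 (SE, adjusted p = 5.14e-06). FT, the mobile floral signal, had 1.98, 0 and 0 normalized counts in the bcl7a bcl7b brm-1 libraries, against 36.3, 33.7 and 43.3 in the brm-1 libraries, a log2 fold change of -4.74 ± 1.25 (SE, adjusted p = 0.00565). Promoters and repressors thus fell together, and none of the 3 overlapped. MAF2 and MAF3, relatives of the repressor FLC, fell by 1.96 and 2.18, and PI, a petal and stamen identity gene, fell by 2.89. FLC itself had 365, 358 and 265 normalized counts in the bcl7a bcl7b brm-1 libraries, against 264, 231 and 322 in the brm-1 libraries (log2 fold change 0.27, adjusted p = 0.868). With brm-3, 4 of the 18 rose and none fell, and 10 had a more negative effect with brm-1, among them SVP, with a difference of -0.93 ± 0.23 (SE, adjusted p = 0.00434).

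Type-A response regulators are induced by cytokinin and damp its signal. Of 9 tested, 6 fell and none rose, with a median of -1.30 and 5 to 6 falls with any 1 library left out. ARR16 had 20, 29.6 and 6.15 normalized counts in the bcl7a bcl7b brm-1 libraries, against 400.1, 468 and 931 in the brm-1 libraries, a log2 fold change of -5.07 ± 0.77 (SE, adjusted p = 2.71e-05). ARR7 had 185, 175 and 281 normalized counts in the bcl7a bcl7b brm-1 libraries, against 876, 1005 and 819.9 in the brm-1 libraries, a log2 fold change of -2.10 ± 0.48 (SE, adjusted p = 0.00161). Both were lower in each bcl7a bcl7b brm-1 library, and ARR5, ARR8 and ARR9 fell by 1.22, 1.58 and 1.30. With brm-3, 2 rose and none fell, and the effect was more negative with brm-1 for 5, including ARR7 with a difference of -3.08 ± 0.67 (SE, adjusted p = 0.00141).

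Auxin-induced genes fell more often than they rose. Of 18 early auxin genes, 8 fell and 2 rose, with a median of -1.004, or of -0.78 without the 1 member listed at 0 in a whole genotype. IAA4, a repressor of auxin responses, had 396, 185 and 378 normalized counts in the bcl7a bcl7b brm-1 libraries, against 3666, 4326 and 3455 in the brm-1 libraries, a log2 fold change of -3.65 ± 0.40 (SE, adjusted p = 4.6e-07). IAA7 had 1109, 726 and 1203 normalized counts in the bcl7a bcl7b brm-1 libraries, against 2418, 3281 and 2978 in the brm-1 libraries, a log2 fold change of -1.54 ± 0.20 (SE, adjusted p = 4.15e-06). The 2 that rose, GH3.3 and GH3.6, encode enzymes that conjugate auxin to amino acids, and GH3.3 had 594, 515 and 463 normalized counts in the bcl7a bcl7b brm-1 libraries, against 19.4, 31.4 and 94.7 in the brm-1 libraries, a log2 fold change of 3.71 ± 0.65 (SE, adjusted p = 0.000131). The IAA repressors and the conjugating enzymes separated the genotypes in opposite directions. The effect was more negative with brm-1 than with brm-3 for 8 of the 18 and more positive for 3.

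Gibberellin genes rose in 7 of 19 cases and fell in none, with a median of 0.72. GID1A, a gibberellin receptor, had 1339, 1394 and 1133 normalized counts in the bcl7a bcl7b brm-1 libraries, against 535, 488 and 528 in the brm-1 libraries, a log2 fold change of 1.31 ± 0.17 (SE, adjusted p = 4.37e-06). RGL1, a DELLA repressor, had 663, 976 and 829 normalized counts in the bcl7a bcl7b brm-1 libraries, against 213, 269 and 300.5 in the brm-1 libraries, a log2 fold change of 1.65 ± 0.23 (SE, adjusted p = 7.95e-06). GA2OX2, which inactivates gibberellin, had 381, 651 and 441 normalized counts in the bcl7a bcl7b brm-1 libraries, against 75.1, 110.2 and 72.1 in the brm-1 libraries, a log2 fold change of 2.49 ± 0.49 (SE, adjusted p = 0.000464). Receptor, repressor and inactivating enzyme were thus all higher, with no overlap, and GID1B and GA2OX6 rose by 1.63 and 1.84.

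Of 15 shoot and guard-cell markers, 6 fell, 1 rose and 8 did not pass, with a median of -1.47. MYB60, a guard-cell MYB factor, had 27.2, 11.9 and 24.1 normalized counts in the bcl7a bcl7b brm-1 libraries, against 205, 241 and 232 in the brm-1 libraries, a log2 fold change of -3.44 ± 0.45 (SE, adjusted p = 4.37e-06). EPF2, a peptide that limits stomatal number, had 87.4, 73.3 and 90.2 normalized counts in the bcl7a bcl7b brm-1 libraries, against 683, 620.04 and 430.02 in the brm-1 libraries, a log2 fold change of -2.75 ± 0.50 (SE, adjusted p = 0.000197). FAMA, which completes guard-cell fate, had 81.2, 43.4 and 37.9 normalized counts in the bcl7a bcl7b brm-1 libraries, against 281, 252 and 214 in the brm-1 libraries, a log2 fold change of -2.25 ± 0.37 (SE, adjusted p = 6.48e-05). All 3 stomatal genes were lower in every bcl7a bcl7b brm-1 library, as was TMM, a receptor for such peptides, at -1.47. CER1, the wax alkane enzyme and the 1 marker that rose, had 329, 484 and 399 normalized counts in the bcl7a bcl7b brm-1 libraries, against 54.2, 43.7 and 52.4 in the brm-1 libraries, a log2 fold change of 2.98 ± 0.61 (SE, adjusted p = 0.000617).

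**Figure D4:**
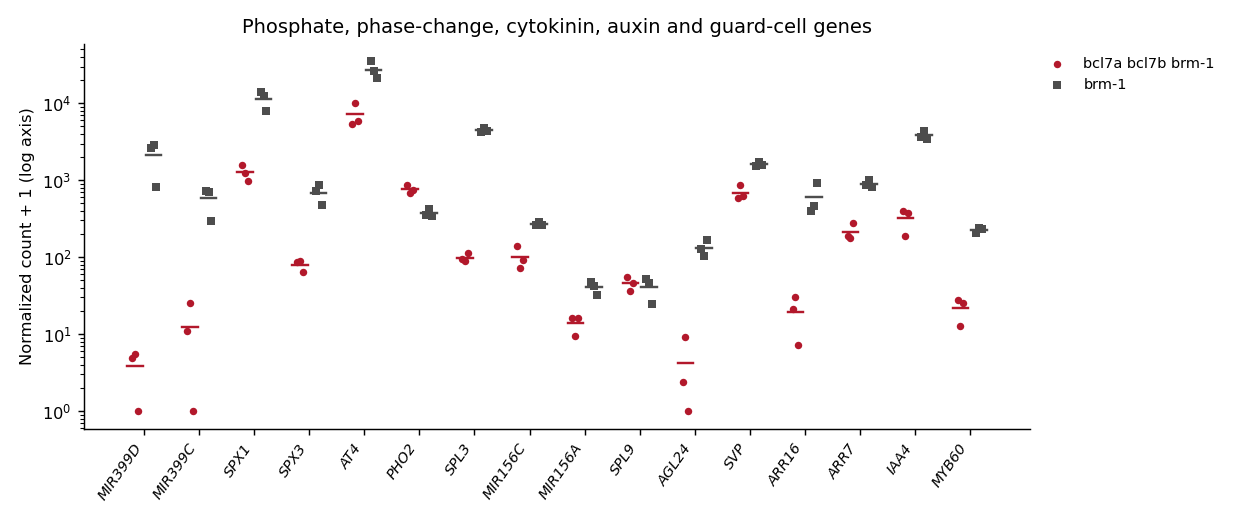
Normalized count plus 1 (log axis) of 16 genes of phosphate starvation, miR156 and its targets, flowering, cytokinin, auxin and guard cells in the 3 bcl7a bcl7b brm-1 libraries and the 3 brm-1 libraries, with bars at the means. PHO2 is higher in each bcl7a bcl7b brm-1 library, SPL9 overlaps between the genotypes, and the other genes shown are lower.

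Most photosynthesis genes were not called in bcl7a bcl7b brm-1, where 14.2% of all genes tested rose and 15.3% fell. Of 20 light-harvesting antenna genes 4 rose and 1 fell, with a median of 0.17, and of 22 photosystem and electron transport genes 2 rose and 1 fell, with a median of 0.13. The number of antenna genes that rose was 2 without bcl7a bcl7b brm-1 replicate 2 or 3 or without any 1 of the brm-1 libraries, and 7 with the libraries scaled to the same total or quantile normalized. The fall in the antenna list was lost without bcl7a bcl7b brm-1 replicate 1 or 2 or brm-1 replicate 1 or 2, and 2 fell without brm-1 replicate 3. Of the photosystem genes, 1 rose without bcl7a bcl7b brm-1 replicate 3 or without any 1 of the brm-1 libraries, and 3 fell without brm-1 replicate 3. LHCB2.1, an antenna protein of photosystem II, had 2530.5, 3244 and 3004 normalized counts in the bcl7a bcl7b brm-1 libraries, against 1303, 1223 and 927 in the brm-1 libraries, a log2 fold change of 1.35 ± 0.26 (SE, adjusted p = 0.000303). PSAN, a photosystem I subunit, had 27137, 39190.5 and 39663 normalized counts in the bcl7a bcl7b brm-1 libraries, against 159611, 168398 and 76476 in the brm-1 libraries, a log2 fold change of -1.87 ± 0.33 (SE, adjusted p = 0.000155). In the gene span of LHCB2.1, 31.7% of the 31-base words occur more than once in the nuclear chromosomes. With brm-3, in contrast, none of the antenna genes rose and 13 fell, and 11 of the photosystem genes fell. The effect was more positive with brm-1 for 14 antenna genes and 10 photosystem genes, among them LHCB2.1, with a difference of 2.79 ± 0.36 (SE, adjusted p = 8.34e-06).

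Of 15 Calvin cycle genes 1 rose and 3 fell (median -0.43), with 1 fall without brm-1 replicate 1 or 2 and 6 without brm-1 replicate 3. Of 16 chlorophyll synthesis genes 2 rose and 1 fell, with 1 rise without bcl7a bcl7b brm-1 replicate 1 or 2 or brm-1 replicate 1 or 3. Of 20 root marker genes 1 rose and 2 fell (median 0.03), with no falls left without bcl7a bcl7b brm-1 replicate 1 or brm-1 replicate 3. Senescence genes included SEN1, induced in darkness and in ageing leaves, with 2510.1, 1593 and 1918 normalized counts in the bcl7a bcl7b brm-1 libraries, against 15242, 13885 and 17637 in the brm-1 libraries, a log2 fold change of -2.97 ± 0.50 (SE, adjusted p = 9.24e-05). NAP and ORE1, NAC factors that promote leaf senescence, also fell, by 2.19 and 1.49, and over the list of 14 there were 5 falls and 2 rises, with 1 rise without bcl7a bcl7b brm-1 replicate 2 or brm-1 replicate 1. SAG13 was one of the 2 that rose, with 287, 805 and 219.9 normalized counts in the bcl7a bcl7b brm-1 libraries, against 1.85, 6.03 and 6.16 in the brm-1 libraries, a log2 fold change of 6.15 ± 1.10 (SE, adjusted p = 0.000156). The 2 rises among 14 genes were near the share over all genes tested, 14.2%, and are not read as a trait of the list.

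Heat shock genes rose in 4 of 13 cases and fell in 1, with 2 rises without any 1 of the bcl7a bcl7b brm-1 libraries or without brm-1 replicate 2. HSP70 had 1031, 955 and 982 normalized counts in the bcl7a bcl7b brm-1 libraries, against 218, 210.1 and 207 in the brm-1 libraries, a log2 fold change of 2.22 ± 0.27 (SE, adjusted p = 1.85e-06). HSFA7A, a heat shock transcription factor, had 40.9, 35.6 and 20.7 normalized counts in the bcl7a bcl7b brm-1 libraries, against 582, 542 and 467 in the brm-1 libraries, a log2 fold change of -4.04 ± 0.39 (SE, adjusted p = 9.7e-08). These 2 separated the genotypes in opposite directions. Of 13 iron genes, a list of uptake genes, regulators and ferritins, 5 rose and none fell. There were 3 rises without bcl7a bcl7b brm-1 replicate 2 or 3 or without brm-1 replicate 1. The 5 were IRT1, FER1, PYE, FER3 and AHA2, and their rise is not read as a response to iron deficiency. FER1, the iron storage protein ferritin, had 18648, 18787 and 13997 normalized counts in the bcl7a bcl7b brm-1 libraries, against 4334, 4844 and 4188 in the brm-1 libraries, a log2 fold change of 1.93 ± 0.28 (SE, adjusted p = 1.81e-05), with no overlap.

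The nitrate list had 4 rises and 1 fall among 10 genes, and no fall without bcl7a bcl7b brm-1 replicate 2 or 3 or brm-1 replicate 3. NRT2.1, a high-affinity nitrate transporter, had 34.5, 115 and 120.2 normalized counts in the bcl7a bcl7b brm-1 libraries, against 1.76, 0 and 0 in the brm-1 libraries, a log2 fold change of 5.82 ± 1.23 (SE, adjusted p = 0.000842). NRT1.1, the transporter that also senses nitrate, had 4965, 6832 and 5776 normalized counts in the bcl7a bcl7b brm-1 libraries, against 1999, 1965 and 2363 in the brm-1 libraries, a log2 fold change of 1.47 ± 0.16 (SE, adjusted p = 6.62e-07). Both were higher in every bcl7a bcl7b brm-1 library. Of 7 CBF and cold response genes 2 rose and none fell, with 1 rise without bcl7a bcl7b brm-1 replicate 1 or 2 or brm-1 replicate 3, and of 14 brassinosteroid genes 2 rose and 4 fell, with 1 rise without bcl7a bcl7b brm-1 replicate 3. Of 12 alpha-expansin genes 3 rose and 2 fell, EXPA4 with 4041, 6993 and 5205 normalized counts in the bcl7a bcl7b brm-1 libraries, against 898, 816 and 1092 in the brm-1 libraries, a log2 fold change of 2.51 ± 0.28 (SE, adjusted p = 6.62e-07), and EXPA5 with a log2 fold change of -2.08, and 5 rose without brm-1 replicate 3.

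Cell division genes rose in 4 of 17 cases and fell in 2. CYCD3;1, a D-type cyclin, had 436, 426 and 421 normalized counts in the bcl7a bcl7b brm-1 libraries, against 177, 142 and 188 in the brm-1 libraries, a log2 fold change of 1.34 ± 0.24 (SE, adjusted p = 0.000161). KRP1, an inhibitor of cyclin-dependent kinases, had 66, 67.6 and 50.5 normalized counts in the bcl7a bcl7b brm-1 libraries, against 482, 555 and 398 in the brm-1 libraries, a log2 fold change of -2.94 ± 0.80 (SE, adjusted p = 0.00676). The cyclin and the inhibitor thus differed in opposite directions without overlap. STM, which maintains the shoot meristem, was the 1 of 12 KNOX and boundary genes that passed, with 272, 379 and 278 normalized counts in the bcl7a bcl7b brm-1 libraries, against 82.8, 101 and 90.9 in the brm-1 libraries, a log2 fold change of 1.74 ± 0.37 (SE, adjusted p = 0.000898). In other fits more of these 12 rose, 6 with only the compared genotypes, 4 with a pseudocount of 5 and 2 or 3 with other scalings. Of 17 TCP, GRF and leaf growth genes 2 rose and 2 fell, TCP4 with 373, 319 and 469.9 normalized counts in the bcl7a bcl7b brm-1 libraries, against 176, 201 and 177 in the brm-1 libraries, a log2 fold change of 1.05 ± 0.24 (SE, adjusted p = 0.00169), 1 fell with any 1 of the 6 libraries left out, and 5 rose with only the compared genotypes in the fit. Of 10 morning clock genes 3 fell and none rose, and of 12 evening genes 1 fell, which no longer passed with any 1 of 5 of the 6 libraries left out. 

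Of 8 other SWI/SNF subunit genes tested, 6 were not called. A further 9, among them MINU1, MINU2, BRIP1, BRIP2, BRD1, BRD2 and BRD13, were not analysed here for want of an entry under those names. Of the 8, ARP7 passed upwards (log2 fold change 1.16, adjusted p = 0.0134) and BSH downwards (-0.61, adjusted p = 0.019), and neither call held throughout: the adjusted p of ARP7 was 0.0573 without bcl7a bcl7b brm-1 replicate 2, and that of BSH was 0.062 without bcl7a bcl7b brm-1 replicate 1, 0.0835 without brm-1 replicate 1 and 0.0688 without brm-1 replicate 2. Of 10 Polycomb and H3K27 demethylase genes 1 rose and none fell. That gene was MSI1, a histone-binding subunit, with 949.8, 1055 and 1152 normalized counts in the bcl7a bcl7b brm-1 libraries, against 487, 522 and 635 in the brm-1 libraries, a log2 fold change of 0.95 ± 0.20 (SE, adjusted p = 0.000787).

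Among the 12 largest rises of all genes were 5 described above, CRC, CRA1, SESA1, ICL and TAT3, and the defensin PDF1.2c. The largest by fitted fold change was NATA1 (AT2G39030, chr2:16298110-16299205), which acetylates ornithine and putrescine and is induced by jasmonate, with 2271, 4303 and 1707 normalized counts in the bcl7a bcl7b brm-1 libraries, against 8.85, 0 and 0 in the brm-1 libraries, a log2 fold change of 10.22 ± 1.08 (SE, adjusted p = 2.93e-07). MBP1 (AT1G52040, chr1:19350314-19352791), a myrosinase-binding protein, had 3129, 4257 and 2220.01 normalized counts in the bcl7a bcl7b brm-1 libraries, against 10.6, 14 and 5.91 in the brm-1 libraries, a log2 fold change of 8.18 ± 1.05 (SE, adjusted p = 3.54e-06). AT1G54020 (AT1G54020, chr1:20161555-20163750), annotated as a GDSL-like lipase, had 4790.4, 8715 and 4285 normalized counts in the bcl7a bcl7b brm-1 libraries, against 7.76, 24.1 and 43 in the brm-1 libraries, a log2 fold change of 8.05 ± 0.83 (SE, adjusted p = 2.34e-07). These 3 were abundant in every bcl7a bcl7b brm-1 library and near 0 in brm-1. AT1G68250 (AT1G68250, chr1:25579373-25580199), which has no characterized product, had 9549, 3459 and 1473 normalized counts in the bcl7a bcl7b brm-1 libraries, against 18.5, 2.44 and 1.45 in the brm-1 libraries, a log2 fold change of 9.38 ± 0.84 (SE, adjusted p = 3.17e-08). AT1G73325 (AT1G73325, chr1:27567419-27568281), a Kunitz-type protease inhibitor, had 558, 1214 and 488 normalized counts in the bcl7a bcl7b brm-1 libraries, against 1.78, 0.822 and 0 in the brm-1 libraries. The last of the 12 was AT1G24881 (AT1G24881, chr1:8784036-8785634), an F-box gene. All 31-base words of its span occur more than once in the nuclear chromosomes, so its reads could come from a near-identical copy.

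The largest falls after BCL7B and MIR399D were led by CML30 (AT2G15680, chr2:6830995-6831641), a calmodulin-like protein, with 0, 18.8 and 0 normalized counts in the bcl7a bcl7b brm-1 libraries, against 312, 384 and 285 in the brm-1 libraries, a log2 fold change of -6.91 ± 1.41 (SE, adjusted p = 0.000626). QQS (AT3G30720, chr3:12349047-12349933), an Arabidopsis-specific gene that affects starch content, had 2.98, 1.03 and 0 normalized counts in the bcl7a bcl7b brm-1 libraries, against 179, 252 and 203 in the brm-1 libraries, a log2 fold change of -6.71 ± 1.04 (SE, adjusted p = 3.22e-05). AT2G27402 (AT2G27402, chr2:11722770-11724400), annotated as a plastid transcriptionally active protein, had 25.1, 4.45 and 36.4 normalized counts in the bcl7a bcl7b brm-1 libraries, against 1791, 2219 and 1037 in the brm-1 libraries, a log2 fold change of -6.52 ± 0.51 (SE, adjusted p = 4.68e-09). For each of these the highest bcl7a bcl7b brm-1 library was far below the lowest brm-1 library. AT1G11740, an ankyrin repeat gene, had 3.98, 16.8 and 0 normalized counts in the bcl7a bcl7b brm-1 libraries, against 321, 621 and 386 in the brm-1 libraries, a log2 fold change of -6.58 ± 0.96 (SE, adjusted p = 1.72e-05). AT3G16120, a dynein light chain gene, had 3.68, 6.94 and 0 normalized counts in the bcl7a bcl7b brm-1 libraries, against 358, 358 and 105 in the brm-1 libraries, a log2 fold change of -6.16 ± 0.69 (SE, adjusted p = 6.62e-07). AT5G35525, a PLAC8 family gene, had 0, 4.48 and 14.7 normalized counts in the bcl7a bcl7b brm-1 libraries, against 228, 337 and 214 in the brm-1 libraries, a log2 fold change of -5.85 ± 0.71 (SE, adjusted p = 1.86e-06). The remaining members were MIR399C, the pseudogenes AT2G22710 and AT4G04409, and AT3G49630, an oxygenase gene. The exons of CML30, AT3G49630 and AT4G04409 overlap those of a neighbour. In the gene span of AT2G22710, 41.6% of the 31-base words occur more than once in the nuclear chromosomes.

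Genes that do not encode proteins fell far more often than they rose, a split examined after the values had been seen. Of 20764 protein-coding genes 14.6% rose and 15% fell. Of 41 miRNA genes 1 rose and 19 fell (46.3%), with a median log2 fold change of -1.74, and of 118 other ncRNA genes 1 rose and 55 fell (46.6%), with a median of -1.34. MIR166A (AT2G46685), from which a regulator of HD-ZIP III factors is made, had 23.3, 28.3 and 5.02 normalized counts in the bcl7a bcl7b brm-1 libraries, against 115, 128 and 57.2 in the brm-1 libraries, a log2 fold change of -2.56 ± 0.93 (SE, adjusted p = 0.0385). MIR168A (AT4G19395), whose product targets AGO1, had 40.4, 93.2 and 40.7 normalized counts in the bcl7a bcl7b brm-1 libraries, against 266, 267 and 130.01 in the brm-1 libraries, a log2 fold change of -1.95 ± 0.50 (SE, adjusted p = 0.0046). MIR157A, the 1 that rose, had 428, 448 and 639 normalized counts in the bcl7a bcl7b brm-1 libraries, against 169.6, 214 and 202 in the brm-1 libraries, a log2 fold change of 1.35 ± 0.30 (SE, adjusted p = 0.00137). Precursor transcripts of unrelated miRNA families were thus lower together. With brm-3, 4 of the 41 miRNA genes rose and 3 fell, and the effect was more negative with brm-1 for 15 and more positive for 1. Of the 118 other ncRNA genes, 10 rose and 24 fell with brm-3. Their effect was more negative with brm-1 for 37 and more positive for 5. Of 168 lncRNA genes, 3 rose and 32 fell with brm-1, and 5 rose and 18 fell with brm-3. The ncRNA and lncRNA genes thus fell more often than they rose with brm-3 too. Among protein-coding genes, the share that fell was 0% for gene spans of 1 to 300 bases (19 genes), 25.5% for 301 to 600, 28.6% for 601 to 1000, 21.4% for 1001 to 2000, 10.7% for 2001 to 4000 and 8.87% above 4000. The share was thus higher from 301 to 2000 bases than above, with few genes in the shortest class, and the part of gene length in the result for noncoding genes was not tested.

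Whether the effect of BCL7A and BCL7B loss differed between the null and the hypomorphic allele was tested as the difference of the 2 effects, which share no library. With brm-3, 1960 genes (9.08%) rose and 2622 (12.1%) fell. The effect was more positive with brm-1 than with brm-3 for 3207 genes (14.8%) and more negative for 2838 (13.1%). Of the 3071 genes that rose with brm-1, 1797 (58.5%) had a more positive effect than with brm-3, and of the 3309 that fell, 1960 (59.2%) had a more negative one. Among the jasmonate genes, VSP1 had 147, 125 and 313 in bcl7a bcl7b brm-3 and 489, 656 and 644 in brm-3, with a difference of 8.55 ± 0.48 (SE, adjusted p = 1.11e-10), and AOS a difference of 3.77 ± 0.29 (SE, adjusted p = 1.69e-08). Of 12 jasmonate synthesis genes 4 rose with brm-3, and the effect was more positive with brm-1 for 6 and more negative for 1. Of 11 defensins 8 rose with brm-3, and the effect was more positive with brm-1 for 1 and more negative for 3. Of 18 glucosinolate genes 10 rose with brm-3, with 3 differences in each direction. Of 20 jasmonate signalling and output genes 5 rose and 1 fell with brm-3. The effect on them was more positive with brm-1 for 8 and more negative for 1. TAT3 rose with brm-3 as well (log2 fold change 5.08, adjusted p = 0.00162), and its difference was not called (adjusted p = 0.119). Defensin and glucosinolate rises were thus seen with both alleles. The jasmonate genes divided, and VSP1 and AOS, which rose with brm-1, did not rise with brm-3.

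**Figure D5:**
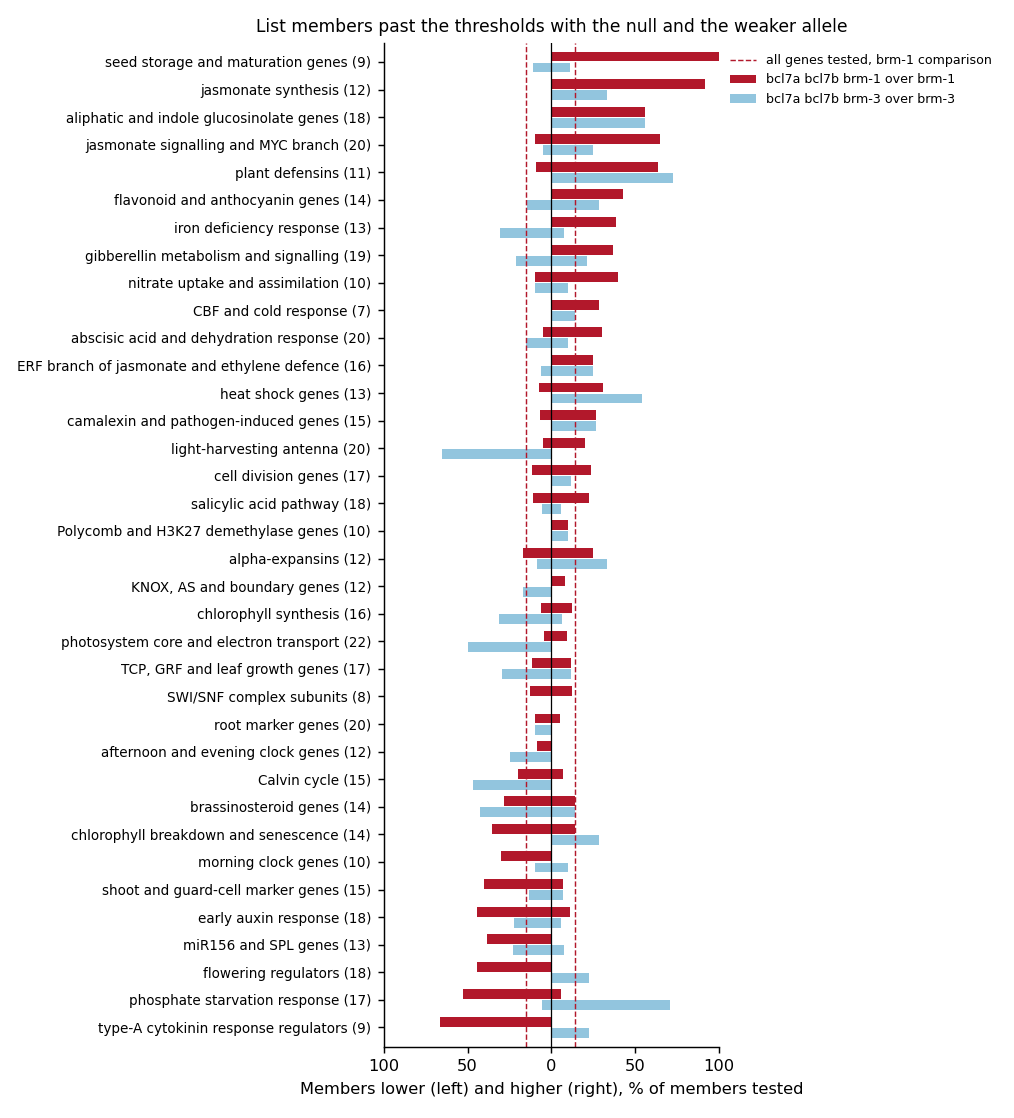
Percentage of tested members of each gene list that rose (to the right) or fell (to the left) in bcl7a bcl7b brm-1 against brm-1 and in bcl7a bcl7b brm-3 against brm-3. Dashed lines mark the same percentages over all 21596 genes tested in the brm-1 comparison. Phosphate starvation, flowering and type-A ARR genes extend to the left with brm-1 and to the right with brm-3, and light-harvesting genes extend far to the left with brm-3.

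The effect was also set against that of the same 2 mutations with BRM intact, bcl7a bcl7b over WT. It was more positive in the absence of BRM for 3164 genes (14.7%) and more negative for 3571 (16.5%). This split depended on the scaling: with all libraries brought to the same total, 1022 genes were more positive and 7454 more negative. The WT, bcl7a and bcl7b libraries summed to 29.9 to 40.9 M normalized counts, with 26.8% to 33.6% in their 10 most abundant genes, well above the values of the other genotypes. NATA1 was listed at 0 in every bcl7a bcl7b and every WT library. SPX1 had 142, 656 and 141 in bcl7a bcl7b and 315, 440.5 and 184 in WT. NATA1 was thus seen at a high level in bcl7a bcl7b brm-1 but not with BRM intact, and the SPX1 level of brm-1 was far above that of WT. JAZ10 had 39.3, 55.8 and 40.6 in bcl7a bcl7b and 56.9, 10.3 and 17.4 in WT, with an effect in the absence of BRM minus that in its presence of 3.36 ± 1.03 (SE, adjusted p = 0.0156). VSP1 had 69.2, 69.7 and 71.5 in bcl7a bcl7b and 245, 159 and 223 in WT, with a difference of 8.38 ± 0.51 (SE, adjusted p = 2.94e-10).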

How the data were processed

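RNA-seq libraries came from 14-day-old seedlings of 8 genotypes, 3 per genotype, grouped by their labels. Per the labels and methods, the authors quantified paired reads with Salmon 1.5.1 against the AtRTD2 transcriptome, normalized them with DESeq2 (given as 3.10 in the submitters' processing notes) and named TAIR10. They state that the inputs were TPM values. The deposited file holds normalized counts per gene, treated here as a signal and not as reads, and whole reads could not be recovered exactly. The label numbers do not pair libraries: deviations of same-numbered libraries correlated at -0.0171, 0.00479 and 0.0295. The methods call the replicates biological. Whether they were grown separately is not given in the sources used here, so p-values measure the spread between these samples.

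After 1 was added, values were transformed to log2. Genes that reached 10 in no fewer than 3 libraries were fitted in R 4.3.3 with limma 3.58.1 (eBayes with trend) and the data.table package (version 1.17.8), with all 8 genotypes in one model. Replicates 1 and 3 of bcl7a bcl7b differed by less than the sampling noise (SD of the log2 ratio 0.0655, against 0.372 to 1.08 for other replicate pairs) and were counted as 1 sample, which left 23 samples. Adjusted p values are Benjamini-Hochberg over all genes tested, and calls need an adjusted p under 0.05 and a log2 fold change beyond 0.6. The script was tested on simulated data. Named genes are the mutated genes, MIR156A, MIR156C and SPL9, the 12 largest rises and falls among calls without overlap and with at least 50 in every library of the higher group, the 5 largest differences of effect in each direction, and members of 37 gene lists. Other miRNA genes, and the splits by biotype and length, were chosen after their values were seen. The members and lists were chosen with earlier results of these data known. Of the identifiers, 32954 matched the TAIR10.1 annotation used for names, positions and sequences, and 20 list members without an entry under the name used were left out. Alternatives were other pseudocounts (0.1 and 5), filters, scalings, thresholds and models, a replicate block, and leaving out each library.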

Additional observations from a re-analysis of the deposited data

Results flagged for a closer look

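The effect of BCL7A and BCL7B loss differed between backgrounds for many genes by the test of the difference itself (limma, Benjamini-Hochberg). It was more positive with brm-1 than with brm-3 for 3207 genes and more negative for 2838, and more positive in the absence of BRM than in its presence for 3164 and more negative for 3571. The genes below are the 5 with the largest difference in each direction. No size is given where a group was listed at 0 in all its libraries.

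More positive with brm-1 than with brm-3 were AT4G36032, a noncoding RNA with 147, 275 and 163 normalized counts in bcl7a bcl7b brm-1, 0, 0 and 70.3 in brm-1, 0 in all 3 in bcl7a bcl7b brm-3 and 204, 92 and 201 in brm-3 (adjusted p = 6.06e-07). AT1G55673, an uncharacterized protein, had 1394, 1844 and 1514 in bcl7a bcl7b brm-1, 4153, 2722 and 1067 in brm-1, 0 in all 3 in bcl7a bcl7b brm-3 and 2169, 2279.8 and 3447 in brm-3 (adjusted p = 4.71e-13). The exons of both overlap a neighbouring gene. ESP, which steers glucosinolate breakdown towards nitriles, had 51.4, 119 and 74 in bcl7a bcl7b brm-1, 0, 12.6 and 0.748 in brm-1, 46.2, 12.4 and 6.74 in bcl7a bcl7b brm-3 and 526, 480.2 and 742 in brm-3, a log2 difference of 9.84 (adjusted p = 5.04e-07). The seed genes CRA1 (adjusted p = 0.000103) and CRC (adjusted p = 0.000203) completed the 5.

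More negative with brm-1 than with brm-3 were the following 5. MIR399D had 181, 0 and 280.1 in bcl7a bcl7b brm-3 and was listed at 0 in every brm-3 library (adjusted p = 8.44e-06), and MIR399C had 328, 61.3 and 181 in bcl7a bcl7b brm-3 and was likewise at 0 in brm-3 (adjusted p = 1.05e-06). PEPC1, a phosphatase gene, had 216, 234 and 105 in bcl7a bcl7b brm-1, 4047, 4076 and 2792 in brm-1, 1693, 309 and 1868 in bcl7a bcl7b brm-3 and 5.51, 1.82 and 0.876 in brm-3, a log2 difference of -12.6 (adjusted p = 5.63e-06). PAP14, a purple acid phosphatase, had 12.5, 13.3 and 3.41 in bcl7a bcl7b brm-1, 569, 506 and 359 in brm-1, 87.8, 10.9 and 153 in bcl7a bcl7b brm-3 and 0 in all 3 in brm-3 (adjusted p = 5.04e-07). AT2G17850, a rhodanese family gene, had 253, 784 and 503 in bcl7a bcl7b brm-1, 2392, 1882 and 926 in brm-1, 1842, 1758 and 1761 in bcl7a bcl7b brm-3 and 0 in all 3 in brm-3 (adjusted p = 5.33e-10). PEPC1 and PAP14 fell with brm-1. The fall of AT2G17850 with brm-1 lost its call without bcl7a bcl7b brm-1 replicate 1 (adjusted p = 0.109), brm-1 replicate 1 (adjusted p = 0.101) or brm-1 replicate 2 (adjusted p = 0.0728).

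More positive in the absence of BRM than in its presence were NATA1 (adjusted p = 5.17e-05), AT1G68250 (adjusted p = 8.05e-06) and SESA1, with a log2 difference of 9.52 (adjusted p = 0.000147), whose levels in both genotypes are given above. AT4G11310, a papain-type protease gene, had 106, 189.9 and 104 in bcl7a bcl7b brm-1, 0.896, 0 and 5.24 in brm-1, 0.696, 26.3 and 0.719 in bcl7a bcl7b and 132, 49.9 and 41.1 in WT, a log2 difference of 9.09 (adjusted p = 0.000106). AT1G24800, an F-box gene with overlapping neighbours, had 766, 1816 and 1593 in bcl7a bcl7b brm-1, 197, 265 and 238 in brm-1, 0 in all 3 in bcl7a bcl7b and 2410.02, 533 and 0 in WT (adjusted p = 0.0255). Its call was lost without bcl7a bcl7b replicate 2 (adjusted p = 0.0664), WT replicate 1 (adjusted p = 0.0688) or WT replicate 2 (adjusted p = 0.0572).

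More negative in the absence of BRM were MIR399D (adjusted p = 0.00121) and AT1G07050, a CCT motif gene with 72.1, 50.2 and 64.4 in bcl7a bcl7b brm-1, 1263, 1187 and 429 in brm-1, 131, 91.9 and 134 in bcl7a bcl7b and 0, 3.26 and 0 in WT, a log2 difference of -9.89 (adjusted p = 4.48e-07). AT2G38995, an acyltransferase gene, had 17, 0 and 16.6 in bcl7a bcl7b brm-1, 211, 324 and 238 in brm-1, 8.32, 15.5 and 8.59 in bcl7a bcl7b and 0 in all 3 in WT (adjusted p = 1.35e-05). AT1G78530, a protein kinase gene, had 2.01, 22.6 and 7.56 in bcl7a bcl7b brm-1, 197, 249.8 and 186 in brm-1, 22.5, 55.8 and 23.2 in bcl7a bcl7b and 0, 8.47 and 0 in WT, a log2 difference of -8.75 (adjusted p = 5.28e-05). AT4G39838, a noncoding RNA that overlaps other genes, had 0 in all 3 in bcl7a bcl7b brm-1, 234, 195 and 0 in brm-1, 287, 363 and 289 in bcl7a bcl7b and 124, 0 and 143 in WT (adjusted p = 0.0473). Its call was lost with a pseudocount of 0.1, with no filter, with quantile normalization and with most single libraries left out, at adjusted p values up to 0.125. The other 18 differences of single genes kept their call under every alternative tried.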

How the results depend on the processing

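The main counts held within 1.5 times under all alternatives but the following. At a log2 threshold of 1, 1950 genes rose. With each library rescaled to the same total, 1022 genes had a more positive and 7454 a more negative effect in the absence of BRM than in its presence, a comparison that includes the larger WT libraries. The median change over genes tested, -0.01 on the log2 scale, was 0 with no filter, 0.041 with a filter at a mean of 50, 0.066 at the same total and 0.028 after quantile normalization. Leaving out 1 library at a time gave 2392 to 2776 rises and 2504 to 3051 falls, a median of -0.0152 to 0.0038, 2677 to 3114 effects more positive and 2256 to 2714 more negative with brm-1 than with brm-3, and 2529 to 3244 more positive and 2689 to 4008 more negative than with BRM intact. A fit of the 2 compared genotypes alone gave 4131 rises and 4336 falls, and with a replicate block 3958 and 4166. Over the gene lists, the fit of the compared genotypes alone gave more rises for abscisic acid (14), camalexin (10), salicylic acid (8), KNOX and boundary (6), TCP and GRF (5) and auxin genes (4), and with the block 13, 10, 7, 6 and 5 for the first 5 of these. Over all 24 libraries the replicate block gave 3181 rises and 3441 falls, against 3175 and 3412 without it. For 235 single genes, 4156 of 4436 recomputed calls kept their side of the thresholds, 272 were lost, 7 were gained and 1 reversed. The reversal was SPL9, not called, with -0.11 to 0.42 when 1 library was left out. Genes near the filter of 10 are limited by depth, with large standard errors, and fold changes of genes near 0 depend on the pseudocount.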
